A study of Arabidopsis thaliana with 6 samples.

Results

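SDC (AT2G17690, also called SUPPRESSOR OF DRM1 DRM2 CMT3) is a protein-coding gene of Arabidopsis thaliana on chromosome 2, and was examined here together with 3000 b on each side. It was chosen by name as 1 of the 37899 genes and pseudogenes annotated on the 5 nuclear chromosomes. CHH methylation, where H is A, C or T, was measured over the interval chr2:7679162-7687083 (TAIR10) in every library, in bins of 100 b, by strand, and separately for the upstream flank, the gene body and the downstream flank.

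The data were 6 whole-genome bisulfite sequencing libraries from above-ground tissue of 2.5-week-old Col-0 plants grown in soil under 16 h light and 8 h dark, with 2 libraries in each of 3 groups. Bisulfite treatment converts unmethylated cytosine so that it is read as T, and leaves methylated cytosine to be read as C. All 3 groups carried nrpd1-3, a T-DNA insertion in NRPD1, which encodes the largest subunit of RNA polymerase IV (Pol IV). The first group was nrpd1-3 itself, the second was nrpd1-3 with a transgene encoding NRPD1 without its carboxy-terminal DeCL domain (NRPD1ΔCTD, labelled nrpd1dDeCL), and the third was nrpd1-3 with a full-length transgene (NRPD1FL). The sample titles of the third group read NRPE1FL whereas the transgene field reads NRPD1FL, and the transgene field was followed. Both transgenes were genomic clones driven by the native NRPD1 promoter with a FLAG tag at the carboxy terminus, and plants were selected with Basta. The study describes the libraries of a genotype as biological replicates. How many independent transgenic lines they represent is not given in the sources used here. No wild-type library was analysed here, and NRPD1FL served as the reference.

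RNA-directed DNA methylation (RdDM) is a plant silencing pathway in which Pol IV and an RNA-dependent RNA polymerase make double-stranded RNA that is diced into small interfering RNAs (siRNAs). These guide the DNA methyltransferase DRM2 to matching loci, where it methylates cytosines in all contexts, CHH included. SDC encodes an F-box protein and is a classical target of this pathway. Tandem repeats in its promoter carry non-CG methylation that keeps the gene silent in vegetative tissue, and the gene is derepressed when DRM2 and the CHG methyltransferase CMT3 are both lost. SDC is also an imprinted gene that is expressed from the maternal copy in endosperm. Transcripts were not measured in these data.

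The tandem repeats were located from the sequence alone, as the span over which 12-base words recurred at least 3 times in the interval. A single array was found at chr2:7681871-7682077, which is 207 bp long and runs from -291 to -85 relative to the annotated start of SDC. It has a period of 32 bp and holds 71.0% A and T, against 62.7% in the whole interval. It contains 30 CHH cytosines, 13 of them on the top strand, which is the coding strand of SDC. The window in which the loss of methylation was largest spans the whole array and is printed from the top strand, with the array in capitals (RefSeq, TAIR10.1).
Window with the largest loss, chr2:7681801-7682100: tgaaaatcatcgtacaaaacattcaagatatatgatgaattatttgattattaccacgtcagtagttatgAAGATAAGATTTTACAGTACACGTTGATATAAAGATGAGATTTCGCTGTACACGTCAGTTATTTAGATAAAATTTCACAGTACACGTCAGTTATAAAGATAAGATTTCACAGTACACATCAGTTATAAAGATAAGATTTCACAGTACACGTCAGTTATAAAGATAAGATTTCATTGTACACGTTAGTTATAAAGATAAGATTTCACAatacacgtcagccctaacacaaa
The array is tiled by 7 copies of a 31 to 32 bp unit, which are shown because methylation differed along them. Capitals mark the cytosines in CHH context on the printed strand.
Unit 1, chr2:7681864-7681894: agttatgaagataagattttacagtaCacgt
Unit 2, chr2:7681895-7681926: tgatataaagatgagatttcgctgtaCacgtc
Unit 3, chr2:7681927-7681958: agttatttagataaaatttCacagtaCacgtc
Unit 4, chr2:7681959-7681990: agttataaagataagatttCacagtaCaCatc
Unit 5, chr2:7681991-7682022: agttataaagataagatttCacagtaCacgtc
Unit 6, chr2:7682023-7682053: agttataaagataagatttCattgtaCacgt
Unit 7, chr2:7682055-7682086: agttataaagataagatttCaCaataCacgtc
Unit 5, the sequence used to find the others, has 1 exact copy in the nuclear genome when both strands are counted. Units 4 and 7 differ from it by 1 edit, units 1, 3 and 6 by 3 edits, and unit 2 by 5 edits. The cytosine at unit position 27, in the trinucleotide CAC, is present in all 7 units, whereas the one at unit position 20 is present in 5.

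SDC lies on the top strand with its start at 7682162 and its end at 7684083. Exon 1 (7682162 to 7682409) and exon 2 (7682580 to 7682627) are untranslated, and the coding sequence lies wholly in exon 3 (7682818 to 7684083). AT2G17680, a gene of unknown function, ends 1783 b before the SDC start. AT2G17695, which encodes an outer envelope protein, lies on the opposite strand and overlaps SDC by 1303 bp. STY8 (AT2G17700), a protein kinase gene, also lies on the opposite strand and reaches into the downstream flank to within 1270 bp of the end of SDC.

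The libraries listed between 12654903 and 13819039 CHH cytosines with 5 or more reads each, at a mean coverage of 15.2 to 16.3 reads, and the level over all listed cytosines was 6.06 to 7.27%. Read depth over NRPD1 was 1.87 and 1.89 times the chromosome 1 median in nrpd1-3, against 2.57 and 2.57 times in NRPD1ΔCTD and 3.12 and 2.94 times in NRPD1FL. Between replicates of 1 group, the test used below called 693 windows in nrpd1-3, 479 in NRPD1ΔCTD and 491 in NRPD1FL over the genome. These were 0.166, 0.115 and 0.118% of all windows, and 0 of them lay at SDC. At such shares, 0 calls among the 33 windows at SDC say little about how well replicates agree there. In the window from -361 to -62, described below, the NRPD1FL replicates stood at 26.7 and 17.5%.

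CHH methylation at SDC was concentrated in a stretch of under 1000 b around the annotated start, from about 500 b before it to about 300 b after it. Over the upstream flank it was lowest in nrpd1-3, higher in NRPD1ΔCTD and highest in NRPD1FL. The level of a region is the share of methylated reads among all reads at its listed cytosines. In the upstream flank it was 1.05 and 1.79% in the nrpd1-3 libraries, 4.78 and 3.23% in the NRPD1ΔCTD libraries, and 8.77 and 6.04% in the NRPD1FL libraries (replicates 1 and 2). The 3 groups did not overlap, and each library rested on 2301 to 3478 reads. The group means were 1.42 ± 0.523%, 4.01 ± 1.09% and 7.40 ± 1.93% (SD, n = 2). The mean of nrpd1-3 was 5.98 points below NRPD1FL, that of NRPD1ΔCTD was 2.59 points above nrpd1-3 and 3.40 points below NRPD1FL, where a point is 1 percentage point of methylation.

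The repeat array showed larger differences. Its level stood at 1.72 and 1.71% in nrpd1-3, at 16.0 and 11.3% in NRPD1ΔCTD, and at 34.1 and 21.4% in NRPD1FL. The 3 groups again did not overlap, and NRPD1FL replicate 1 was the highest library. The 95% Wilson intervals were 0.474 to 6.07% and 0.470 to 6.02% in nrpd1-3, 11.5 to 22% and 7.15 to 17.3% in NRPD1ΔCTD, and 29.1 to 39.4% and 16.7 to 26.9% in NRPD1FL. These intervals cover counting error only, and a read is counted at every cytosine that it covers. Mean levels were 1.72 ± 0.0104%, 13.7 ± 3.38% and 27.7 ± 8.97% (SD, n = 2), so that nrpd1-3 lay 26.0 points below NRPD1FL, and NRPD1ΔCTD lay 11.9 points above nrpd1-3 and 14.1 points below NRPD1FL.

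The libraries did not read the same cytosines of the array. Of its 30 CHH cytosines, nrpd1-3 libraries listed 15 and 12, NRPD1ΔCTD libraries 19 and 18, and NRPD1FL libraries 24 and 21, with 116 to 323 reads. The number of reads at the array thus moved with its level, and its part in the differences was not tested beyond a comparison on shared cytosines. Over the 8 cytosines listed in all 6 libraries, 2 of them on the top strand, the level was at 1.3 and 2.25% in nrpd1-3, at 9.88 and 4.35% in NRPD1ΔCTD, and at 26.8 and 8.70% in NRPD1FL. On these cytosines nrpd1-3 remained the lowest group, while NRPD1ΔCTD replicate 1 lay above NRPD1FL replicate 2 and those groups overlapped. The differences of the means were -16.0 points for nrpd1-3 minus NRPD1FL, 5.34 points for NRPD1ΔCTD minus nrpd1-3 and -10.6 points for NRPD1ΔCTD minus NRPD1FL.

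**Figure D1:**
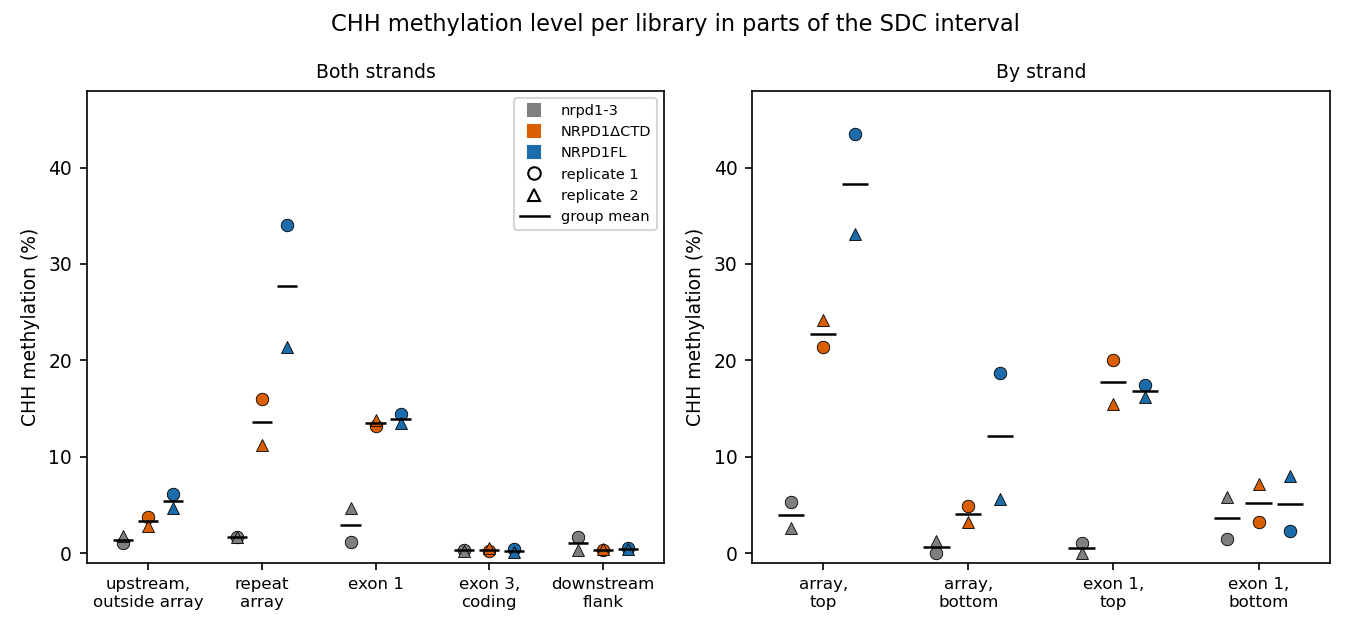
CHH level in percent (vertical axes) of each library (circles, replicate 1, and triangles, replicate 2) and group mean (lines, n = 2) in 5 stretches of the SDC interval on both strands (left) and by strand in the array and exon 1 (right). In the repeat array the nrpd1-3 libraries sit at 1.71 to 1.72%, the NRPD1ΔCTD libraries at 11.3 to 16.0% and the NRPD1FL libraries at 21.4 to 34.1%. In exon 1 the NRPD1ΔCTD and NRPD1FL libraries sit together at 13.2 to 14.4%. In both stretches the cytosines listed differ between libraries.

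Outside the array the upstream flank showed the same order at lower levels. The rest of the flank was at 1.02 and 1.79% in nrpd1-3, at 3.78 and 2.82% in NRPD1ΔCTD, and at 6.18 and 4.69% in NRPD1FL, and again no groups overlapped. Over the last 500 b before the start, array included, the level was 3.00 and 5.97%, 14.4 and 12.1%, and 22.9 and 21.3%. AT2G17680, at the far end of the flank, was at 0.168 to 0.502% in all 6 libraries.

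In the gene body, the level was at 0.452 and 0.405% in nrpd1-3, at 1.03 and 2.19% in NRPD1ΔCTD, and at 1.78 and 1.67% in NRPD1FL. Both transgenic groups lay above nrpd1-3 and overlapped each other. The signal sat in exon 1, the untranslated first exon, at 1.2 and 4.67% in nrpd1-3, at 13.2 and 13.8% in NRPD1ΔCTD, and at 14.4 and 13.5% in NRPD1FL. There the NRPD1ΔCTD and NRPD1FL libraries overlapped, and all 4 lay above both nrpd1-3 libraries. Exon 1 was read by 150 to 421 reads per library, and the cytosines listed differed between libraries. Within it the NRPD1ΔCTD libraries were at 3.80 and 18.3% in the bin from 0 and at 19.4 and 7.32% in the bin from +100. Over the 149 gene-body cytosines listed in all 6 libraries, nrpd1-3 remained the lowest group. Its difference from NRPD1FL there was -0.349 points, in place of -1.29 points. The coding part of exon 3 was at 0.0932 to 0.507% in every library, and AT2G17695, which overlaps it, was at 0.173 to 0.606%.

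The downstream flank was at 1.72 and 0.364% in nrpd1-3, at 0.279 and 0.382% in NRPD1ΔCTD, and at 0.480 and 0.419% in NRPD1FL. The highest value, in nrpd1-3 replicate 1, came mostly from the stretch over STY8, which was at 2.19% in that library and at 0.193 to 0.540% in the other 5. In this library the 3 bins that begin 4500, 4600 and 4700 b after the start were at 4.89, 10.7 and 3.16%, against at most 1.36% in any other library. Without that library the mean difference of nrpd1-3 from NRPD1FL in the downstream flank was -0.0852 points in place of 0.594.

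With 2 libraries against 2, the two-sided exact permutation test used for these region differences cannot give a p below 0.333, so that it could call none of them significant. That smallest p was reached by all 3 comparisons of the whole interval, the upstream flank and the repeat array (exact p = 0.333, Benjamini-Hochberg adjusted p = 0.417 over the 15 comparisons of regions). It was also reached by nrpd1-3 against either transgenic group in the gene body and by NRPD1ΔCTD against NRPD1FL in the downstream flank. NRPD1ΔCTD and NRPD1FL differed by -0.109 points in the gene body (exact p = 1), where the groups overlapped.

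**Figure D2:**
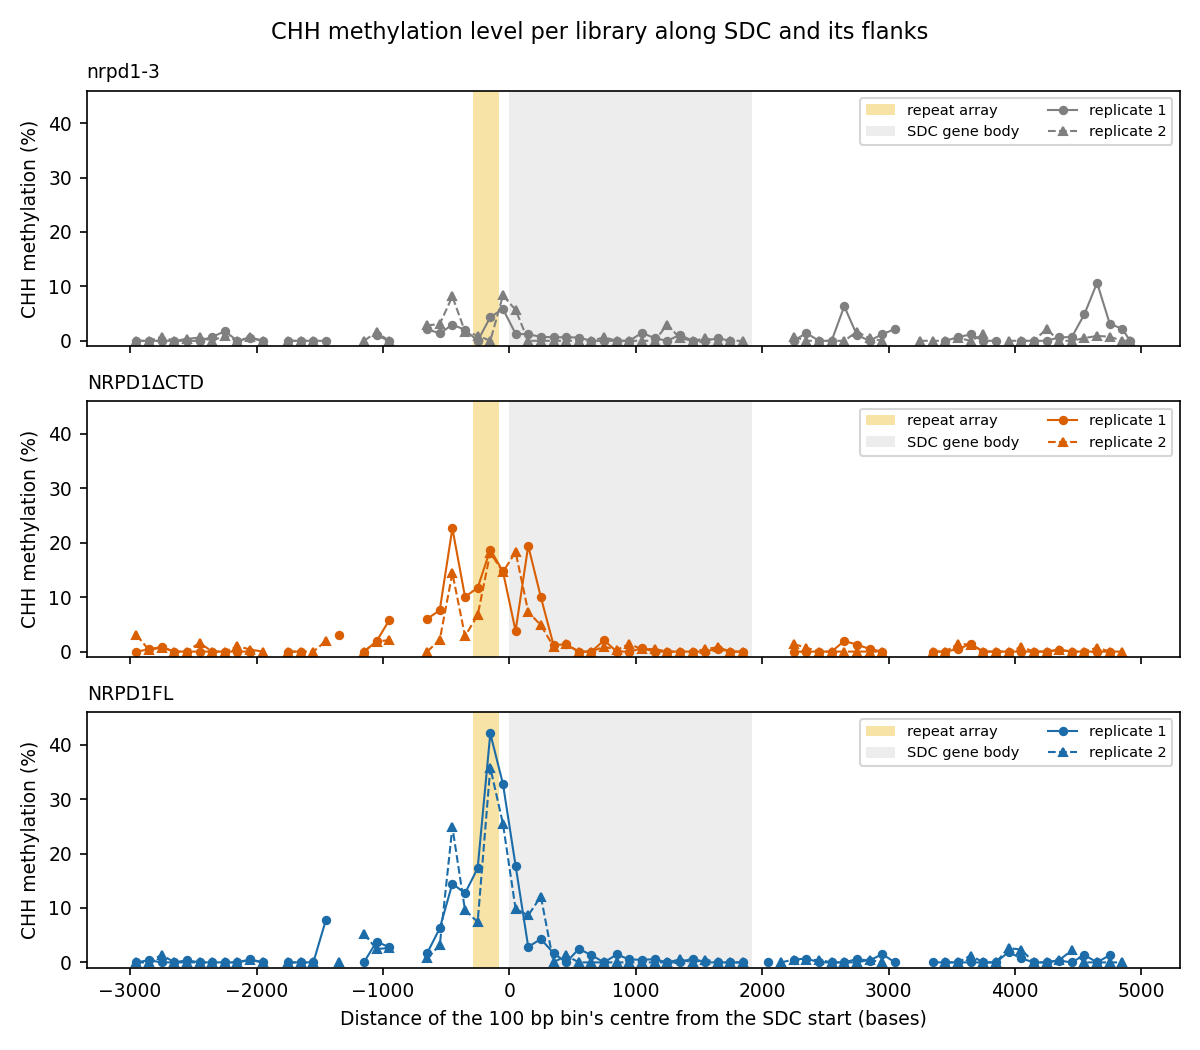
CHH level in percent (vertical axis) in bins of 100 b along SDC and its flanks, by distance from the annotated start in bases (horizontal axis), with a panel for each group, a line for each library, and shading for the repeat array and the gene body. Levels above 10% lie between -500 and +300 with the exception of 1 bin in nrpd1-3 replicate 1, and the highest, 42.1%, is in NRPD1FL replicate 1 in the bin that begins 200 b before the start.

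The bins of 100 b resolved where each group differed. In the 30 bins of the upstream flank, the level was above 5% in both libraries in 1 bin in nrpd1-3, in 4 bins in NRPD1ΔCTD and in 5 bins in NRPD1FL. The counts were 0, 1 and 1 in the 19 bins of the gene body, and 0 in each group in the 31 bins whose middle lies downstream. The bin from -200, in the middle of the array, was at 4.35 and 0% in nrpd1-3, at 18.8 and 18.2% in NRPD1ΔCTD, and at 42.1 and 35.8% in NRPD1FL. Its 3 groups did not overlap, but with 23 and 14 reads in nrpd1-3 it held too few cytosines to be tested.

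A logistic regression of methylated and unmethylated reads on group (likelihood-ratio test) was then fitted to every window of 300 bp in the genome, and windows with a Benjamini-Hochberg adjusted p of at most 0.01 and a difference of at least 10 points were called. Of 417722 windows tested, 33 lay at SDC. In nrpd1-3 against NRPD1FL, 2 of these 33 were called lower, which compares with 2.43% of all windows, and 0 were called higher, against 0.0182% of all windows. Both lie across the promoter. The window from -361 to -62, which contains the array, was at 1.04 and 2.83% in nrpd1-3, at 12.1 and 8.93% in NRPD1ΔCTD, and at 26.7 and 17.5% in NRPD1FL. Its groups did not overlap, and nrpd1-3 lay 21.1 points below NRPD1FL (logistic regression, adjusted p = 4.9e-35). The window from -161 to +138, which covers the end of the array and the start of exon 1, was at 4.22 and 6.87%, 10.6 and 15.8%, and 29.9 and 20.6%, also without overlap. Here nrpd1-3 lay 19.6 points below NRPD1FL (logistic regression, adjusted p = 1.3e-24).

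NRPD1ΔCTD was lower than NRPD1FL in the same 2 windows, against 0.546% of all windows, by 12.2 points (adjusted p = 1e-08) and 11.5 points (adjusted p = 1.6e-07) in the logistic regression. In 0 windows at SDC was it called higher, against 0.017% of all windows. These calls rested on NRPD1FL replicate 1, without which neither was made (-6.79 points, adjusted p = 0.0493, and -6.65 points, adjusted p = 0.0611), and without NRPD1ΔCTD replicate 1 the second window fell short of 10 points (-9.68). The test takes reads as independent and so leaves the spread between replicates out. A quasi-binomial F test and limma, which include that spread, called 0 windows at SDC and 0 in the genome in any comparison. At an unadjusted p under 0.05 and 10 points they found 1 and 2 windows at SDC lower in nrpd1-3 than in NRPD1FL, and 0 and 1 lower in NRPD1ΔCTD than in NRPD1FL. Over the genome the corresponding numbers were 8554 and 9774, and 1130 and 1486.

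In the windows of 300 bp at SDC, NRPD1ΔCTD exceeded nrpd1-3 by less than the 10 points required. In that comparison 0 of 33 windows were called in either direction, against 1.49% of all windows called higher and 0.00958% called lower, and the count was also 0 at an unadjusted p under 0.05 with 10 points, by quasi-binomial F test and by limma. The largest gains were 8.81 points in the window from -361 to -62 (logistic regression, adjusted p = 2.4e-09), 8.39 points from +39 to +338 (adjusted p = 1.4e-09) and 8.09 points from -161 to +138 (adjusted p = 1.4e-05). Of the 33 windows, 7 passed the adjusted p alone, in either direction. Of these, 5 lay within or overlapped -600 to +300, where differences ran from 1.11 to 8.81 points. The other 2 lay farther away, where differences ran from -2.90 to 1.53 points. The share of all windows of the genome that passed the adjusted p alone is not given here. Without NRPD1ΔCTD replicate 2 the first window was called, at 10.2 points.

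On both sides of the called windows the comparisons differed in shape. From -561 to -262, upstream of most of the array, nrpd1-3 was 9.52 points below NRPD1FL, and NRPD1ΔCTD was 7.20 points above nrpd1-3 and 2.32 points below NRPD1FL. From +39 to +338, within exon 1 and intron 1, nrpd1-3 was 8.18 points below NRPD1FL, and NRPD1ΔCTD was 8.39 points above nrpd1-3 and differed from NRPD1FL by 0.206 points. In the 27 windows that end before -600 or begin after +300, differences lay between -2.12 and 2.61 points for nrpd1-3 minus NRPD1FL, between -2.90 and 1.53 points for NRPD1ΔCTD minus nrpd1-3, and between -1.10 and 0.702 points for NRPD1ΔCTD minus NRPD1FL. No window of these was called.

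**Figure D3:**
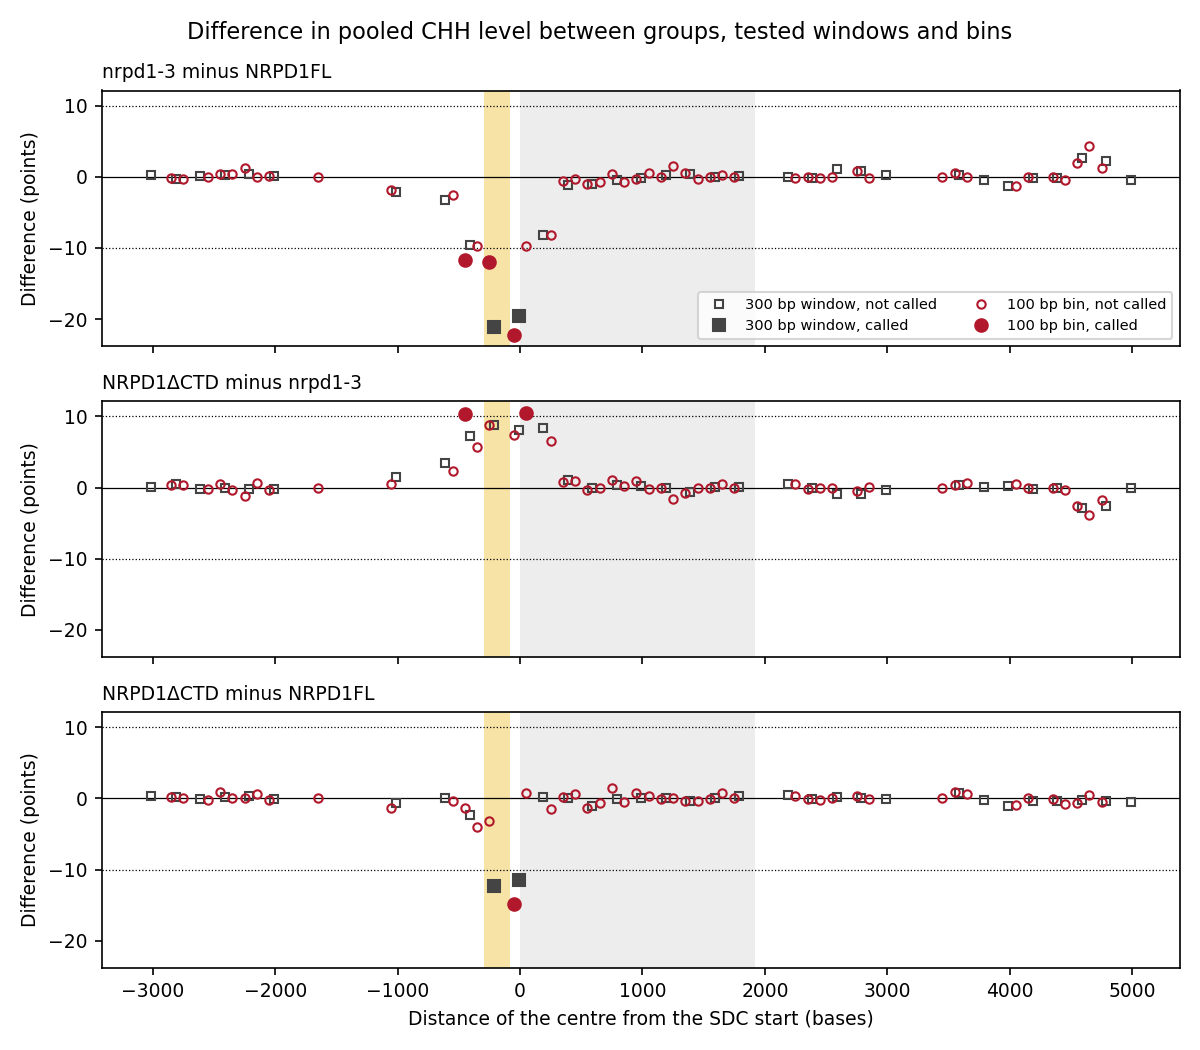
Difference of pooled CHH levels in percentage points (vertical axis) in windows of 300 bp (squares) and bins of 100 bp (circles) by distance of their centre from the SDC start in bases (horizontal axis), for the 3 pairs of groups, with filled symbols for those called. Called windows number 2 in nrpd1-3 minus NRPD1FL (-21.1 and -19.6 points), 2 in NRPD1ΔCTD minus NRPD1FL (-12.2 and -11.5 points) and 0 in NRPD1ΔCTD minus nrpd1-3.

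The same test on bins of 100 b, 48 of them at SDC, called 3 lower in nrpd1-3 than in NRPD1FL, against 2.07% of the 661248 bins tested in the genome, and 0 higher, against 0.0404%. The bin from -500 was at 2.96 and 8.15% in nrpd1-3, at 22.7 and 14.4% in NRPD1ΔCTD, and at 14.5 and 24.9% in NRPD1FL. Here the transgenic groups overlapped, and nrpd1-3 was 11.7 points below NRPD1FL (logistic regression, adjusted p = 1.6e-06). The bin from -300 was at 0 and 0.971%, 11.7 and 6.67%, and 17.3 and 7.43%. In it NRPD1ΔCTD replicate 1 exceeded NRPD1FL replicate 2, the 0 of 105 reads in nrpd1-3 replicate 1 allows a level of up to 2.86%, and nrpd1-3 was 12 points below NRPD1FL (adjusted p = 2.8e-07 in the same test). Such limits, here and below, take every count as independent. A read is counted at every cytosine that it covers, so the true limits are higher. The bin from -100, directly before the start, was at 5.84 and 8.33%, 14.7 and 14.6%, and 32.8 and 25.5%, without overlap. It showed the largest loss, of 22.2 points (logistic regression, adjusted p = 4.6e-16), and was the only bin of the 48 lower in NRPD1ΔCTD than in NRPD1FL, by 14.8 points (adjusted p = 9e-06), against 0.472% of all bins.

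NRPD1ΔCTD was higher than nrpd1-3 in 2 bins, against 1.29% of all bins. These were the bin from -500, by 10.3 points (logistic regression, adjusted p = 0.00093), and the bin from 0, the first 100 b of exon 1, by 10.5 points (adjusted p = 0.0020). In the latter the libraries were at 1.32 and 5.69%, 3.80 and 18.3%, and 17.8 and 9.83%, and all 3 groups overlapped. In the opposite direction, 0 bins at SDC were called lower in NRPD1ΔCTD than in nrpd1-3, against 0.0318% of all bins, and 0 higher than in NRPD1FL, against 0.0198%. The bottom strand of the bin from -100 was not read in NRPD1ΔCTD replicate 1 and NRPD1FL replicate 1.

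Several of these calls depended on single libraries. In the bin from -500, the call of nrpd1-3 against NRPD1FL was lost without nrpd1-3 replicate 1 (-9.97 points) or NRPD1FL replicate 2 (-8.06 points), and that of NRPD1ΔCTD against nrpd1-3 without nrpd1-3 replicate 1 (8.58 points) or NRPD1ΔCTD replicate 1 (8.01 points). The bin from -300 was not called without NRPD1FL replicate 1 (-6.95 points). In the bin from -100, NRPD1ΔCTD was not called against NRPD1FL without NRPD1FL replicate 1 (-10.8 points, adjusted p = 0.0453) or NRPD1ΔCTD replicate 2 (-14.7 points, adjusted p = 0.0101). In the bin from 0, NRPD1ΔCTD minus nrpd1-3 fell to 8.83 points without nrpd1-3 replicate 1 and was -0.223 points without NRPD1ΔCTD replicate 2. The loss in nrpd1-3 in the bin from -100 and in both windows was called whichever library was left out.

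Within the array, units 3 to 7 were above units 1 and 2 in both NRPD1FL libraries. Unit 7, the last, was at 6.67 and 3.33% in nrpd1-3, at 20 and 18.5% in NRPD1ΔCTD, and at 44.3 and 28.6% in NRPD1FL. Its groups did not overlap. Unit 4 was at 4.35% in the 1 nrpd1-3 library that read it, 26.3 and 21.4% in NRPD1ΔCTD, and 40.0 and 37.0% in NRPD1FL, also without overlap. Unit 3 differed from this order, standing at 0 and 0% in nrpd1-3, at 38.5 and 28.6% in NRPD1ΔCTD, and at 37.1 and 25.8% in NRPD1FL, so that the transgenic groups overlapped. The 0 of 16 and 0 of 9 reads in nrpd1-3 allow levels of up to 18.8 and 33.3%.

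Units 1 and 2, the farthest from the start, stayed low. Unit 1 was at 0 and 0%, 6.90 and 0%, and 3.39 and 3.92%, with 43 to 59 reads. Unit 2, which differs most from the reference unit, was at 0 and 2.13%, 2.27 and 3.57%, and 19.4 and 1.52%, with NRPD1FL replicate 1 as the only library above 4%. Unit 1 has no CHH cytosine at unit position 20 and neither has unit 2, as the printed sequences show. Unit 5 was read in no nrpd1-3 library, and reached 14.3 and 0% in NRPD1ΔCTD and 40.4 and 44.0% in NRPD1FL, the 0 resting on 5 reads. Unit 6 was read by at most 28 reads per library, and reached 50 and 25% in NRPD1FL.

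**Figure D4:**
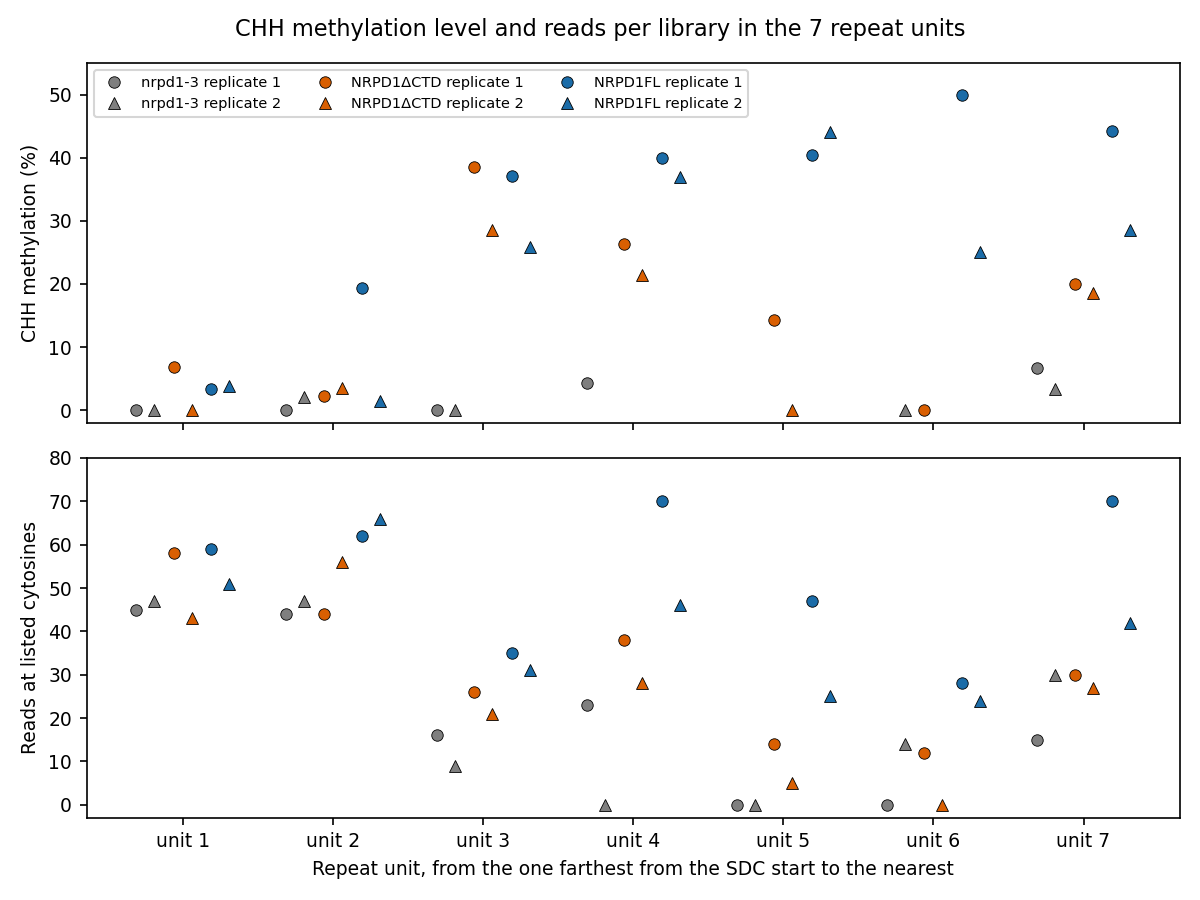
CHH level in percent (upper panel) and reads at listed cytosines (lower panel) of the 7 repeat units in their order towards the SDC start (horizontal axis), with a point for each library. Units 1 and 2 are at or below 19.4% in every library, while units 4 to 7 are at 25 to 50% in both NRPD1FL libraries, and units with 0 reads in a library have no level there.

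Among the cytosines read in the array, methylation was higher on the top strand. The top strand was at 5.26 and 2.56% in nrpd1-3, at 21.4 and 24.1% in NRPD1ΔCTD, and at 43.5 and 33.1% in NRPD1FL. The bottom strand was at 0 and 1.28%, 4.92 and 3.23%, and 18.7 and 5.66%, with the 0 of 78 reads allowing up to 3.85%. Neither strand showed overlap between the groups. The excess of the top strand stood at 5.26 and 1.28 points in nrpd1-3, at 16.5 and 20.9 points in NRPD1ΔCTD, and at 24.8 and 27.4 points in NRPD1FL, positive in 6 of 6 libraries. In NRPD1ΔCTD it exceeded that of nrpd1-3 by 15.4 points and lay 7.41 points below NRPD1FL (exact permutation test, p = 0.333 and adjusted p = 0.5 over 6 strand comparisons, the smallest p possible). In the flank as a whole the excess was -1.22 and -1.34, -2.51 and -1.94, and 2.74 and -2.35 points, with only NRPD1FL replicate 1 above 0.

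The strands of the array differ in sequence. All 10 of its cytosines in CAC lie on the top strand and all 11 in CTT on the bottom strand, so that for these trinucleotides the strand and the sequence cannot be told apart. Only CAA and CAT occur on both strands of the array, at 1 or 2 cytosines each. The top-strand CAA at -86 was at 47.8 and 35.7% in NRPD1FL, against 15.4 and 0% at the bottom-strand CAA at -266, with 13 to 23 reads. The former lies in unit 7 and the latter in unit 2. In unit 2 the top-strand CAC at -241 was at 20 and 14.3% in NRPD1FL, so the pair does not separate strand from unit. Cytosines of the array in CAC were at 3.70 and 0% in nrpd1-3, at 20.8 and 23.3% in NRPD1ΔCTD, and at 41.4 and 34.0% in NRPD1FL. Those in CTT were at 0 and 0%, 5.71 and 4.35%, and 16.4 and 7.55%. At unit position 27, the CAC cytosine shared by all 7 units, the levels were 6.25 and 0%, 23.1 and 22.6%, and 40.4 and 33.8%, and at unit position 20 they were 0 and 0%, 12.8 and 23.8%, and 42.2 and 31.1%. Both positions were ordered nrpd1-3, NRPD1ΔCTD, NRPD1FL without overlap. In nrpd1-3 they rested on 16 and 22 reads at position 27 and on 16 and 17 reads at position 20, from 2 or 3 units. In NRPD1FL they rested on 61 to 99 reads from 5 to 7 units. The values of 0 in nrpd1-3 thus rest on few reads and on other sets of units. On the bottom strand, unit position 10 was at 0 and 0%, 4.55 and 2.63%, and 18.9 and 9.30%. The strands were also read in different units. No library listed a bottom-strand cytosine of units 6 and 7, so strand and unit cannot be fully told apart. In unit 3, NRPD1FL was at 36.4 and 22.2% at -226 on the bottom strand, against 33.3 and 18.2% at -216 on the top strand. At -209, the other top-strand CHH cytosine of unit 3, NRPD1FL was at 41.7 and 36.4%. In unit 4 it was at 11.1 and 20% at -194 on the bottom strand, against 41.2 and 45.5% at -184 on the top strand. These rested on 5 to 17 reads.

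Not all CHH methylation upstream of SDC was lost in nrpd1-3. In the last 500 b before the start, the 35 cytosines in CAA or CTA, the trinucleotides favoured by the chromomethylase CMT2, were at 7.91 and 13.8% in nrpd1-3, at 20.3 and 20% in NRPD1ΔCTD, and at 28.5 and 25.5% in NRPD1FL. The other 78 CHH cytosines were at 0.771 and 2.08%, 11.5 and 8.48%, and 20.4 and 19.5%. In nrpd1-3 both libraries were thus higher at CAA and CTA than at the other cytosines, and in neither class did the groups overlap. In nrpd1-3 the bins from -500 and -100 held 4 and 9 methylated reads in replicate 1, and 22 and 18 in replicate 2. The cytosine in CTA at -27 on the bottom strand was at 40.0 and 57.1% in nrpd1-3, 44.4% in the 1 NRPD1ΔCTD library and 60.0% in the 1 NRPD1FL library that listed it, with 5 to 9 reads. The top-strand CTA at -38, listed in all 6 libraries with 12 to 30 reads, was at 25 and 8.33%, 20 and 40.0%, and 56.7 and 52.6%. The other positions among the 5 highest in pooled NRPD1FL were -10 (CAT, bottom strand, 80%), -53 (CTA, bottom strand, 60.0%) and -371 (CAA, top strand, 57.1%). Each was listed in 1 NRPD1FL library only, with 5, 5 and 7 reads there. Positions picked as the highest on so few reads can be extreme through counting error. None of the 5 lies in the array.

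In exon 1 the strands also differed. The top strand, with 44 of its 55 CHH cytosines, was at 1 and 0% in nrpd1-3, at 20 and 15.4% in NRPD1ΔCTD, and at 17.4 and 16.2% in NRPD1FL, where the 0 of 30 reads allows up to 10%. Both transgenic groups lay above nrpd1-3 and overlapped each other. The bottom strand was at 1.52 and 5.83%, 3.23 and 7.14%, and 2.33 and 7.96%, with overlap between all groups. Exon 1 was not among the regions tested.

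The share of the NRPD1FL level that NRPD1ΔCTD regained, computed as (NRPD1ΔCTD minus nrpd1-3) divided by (NRPD1FL minus nrpd1-3) from group means, was 43.2% in the upstream flank and 45.9% in the array. With each NRPD1ΔCTD library in turn it was 56.2 and 30.3% in the flank, and 55.1 and 36.7% in the array. In the gene body it was 46.8 and 136% and so not defined within a useful range. In the 2 windows called lower in nrpd1-3, it was 42.5 and 38.7%, while the median over all such windows of the genome was 66.4% (quartiles 49.6 and 80.7%), and 17.5 and 14.2% of them had a smaller value. Their losses in nrpd1-3 were close to the middle of all called windows, at 21.1 and 19.6 points against a median of 17.5 points. Among the 3 bins called lower, it was 92.0% from -500, 73.3% from -300 and 34.4% from -100, against a median of 64.6% over all such bins. Both differences in the ratio use the same nrpd1-3 libraries, so these values describe the loci and were not tested.

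Other genes known as targets of RdDM were set beside SDC, namely ERT14, ERT7, ERT9, AT3G30844, FWA and ROS1. FWA encodes a homeodomain transcription factor that is silenced by methylation of promoter repeats, and ROS1 encodes a DNA demethylase whose promoter is a target of RdDM. Of their 104 windows, counted over each gene and the 1000 b before it, 9 in 5 genes were lower in nrpd1-3 than in NRPD1FL, against 2.43% of all windows. Gains of NRPD1ΔCTD over nrpd1-3 were called in 6 windows of 3 genes, and losses against NRPD1FL in 6 windows of 4 genes, against 1.49 and 0.546% of all windows. ERT7 had 3, 3 and 2 such windows, ERT14 had 2 in each comparison, and ROS1 had 0 in each. ERT9 had 2, 0 and 1, FWA 1, 0 and 1, AT3G30844, a pseudogene, 1, 1 and 0, and SDC 2, 0 and 2 of 14. With the window grid shifted, ERT9 and FWA each had 1 window higher in NRPD1ΔCTD than in nrpd1-3, and FWA had 0 lower in NRPD1ΔCTD than in NRPD1FL. ERT9 also had 1 window higher in NRPD1ΔCTD than in nrpd1-3 without NRPD1ΔCTD replicate 1.

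In the window of largest loss, SDC had a regained share of 42.5%. The share was 59.2% at ERT14, 58.4% at ERT7, 30.3% at ERT9, 89.8% at AT3G30844 and 19.7% at FWA. At FWA that window was at 0 and 1.18% in nrpd1-3, at 4.38 and 4.12% in NRPD1ΔCTD, and at 20.1 and 18.2% in NRPD1FL. The level at FWA in NRPD1ΔCTD was below both SDC libraries of that group, at 12.1 and 8.93%. At ERT14 it was 12.9 and 9.54%, 37.2 and 28.1%, and 43.6 and 51.0%, so that ERT14 held more methylation than SDC in every group.

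**Figure D5:**
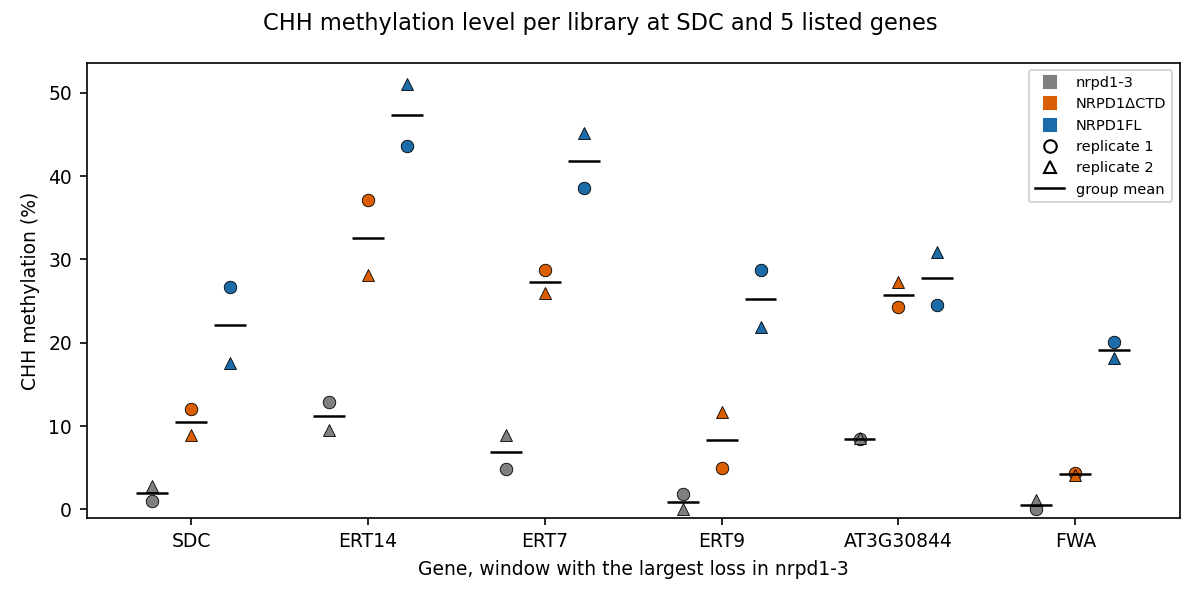
CHH level in percent (vertical axis) in the window with the largest loss in nrpd1-3 at SDC and at the 5 listed genes with a called window, with points for libraries and lines for group means (n = 2). NRPD1ΔCTD lies between nrpd1-3 and NRPD1FL at each gene in its mean, close to nrpd1-3 at FWA (4.12 to 4.38%) and close to NRPD1FL at AT3G30844 (24.2 to 27.3%).

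The 1000 b before SDC were at 2.39 and 4.77% in nrpd1-3, at 11.6 and 7.86% in NRPD1ΔCTD, and at 16.4 and 14.3% in NRPD1FL. Over the 18858 protein-coding genes with enough cytosines the medians of the group means were 0.515, 0.400 and 0.394%. The loss of 11.8 points in nrpd1-3 at SDC was larger than that of 95.6% of these genes. The genes whose 6 levels came nearest to SDC, by root-mean-square difference over the 6 libraries, were AT4G04775 (1.33 points), AT3G44230 (1.49), AT2G22160 (1.56), AT2G04540 (1.57) and TRZ3 (AT1G52160, 1.60). AT2G22160 is annotated as a cysteine proteinase, AT2G04540 as a beta-ketoacyl synthase and TRZ3 as a tRNase Z, and 0 genes came within 1 point. The nearest, AT4G04775, was at 4.80 and 5.44% in nrpd1-3, at 11.0 and 9.57% in NRPD1ΔCTD, and at 15.8 and 15% in NRPD1FL, which is above both SDC libraries in nrpd1-3.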

How the data were processed

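CHH methylation was analysed in 6 bisulfite libraries, grouped by the transgene field of the labels. The authors, per the labels and the study's methods, made libraries with the TruSeq DNA methylation kit, trimmed reads with Cutadapt 1.9.1, mapped them to TAIR10 with Bismark 0.16.1, removed duplicates, and tabulated cytosines with methylKit 0.9.5. The deposited tables hold counts of reads for each cytosine, which is listed from 5 reads upwards. They also hold, as deposited percent columns, the methylated and unmethylated shares, from which methylated reads were recovered. Cytosines with fewer reads are missing, so the set of cytosines differs between libraries, and conversion was not corrected for. All listed positions matched cytosines of the TAIR10.1 assembly, whose annotation was used.

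Windows were 300 bp wide, started every 200 bp and needed at least 10 listed cytosines in every library, and bins of 100 bp needed 5. Each was fitted by logistic regression on group with Benjamini-Hochberg adjustment over all windows or bins of the genome, whereas the study adjusted by SLIM. For region levels, exact permutation tests (two-sided) were run over libraries. Repeat units were accepted at up to 6 edits. The test was tested on simulated data. SDC, the gene list and the tests were chosen with earlier results of these data known, and the list was not tested as a set. Named genes were SDC, the annotated genes overlapping the interval, the 5 nearest in upstream level and the listed RdDM targets. All windows and bins called at SDC, their neighbours, and the 5 cytosines highest in NRPD1FL were named. Units and cytosines beyond these are described after their values were seen. Alternatives covered coverage, the difference required, the grid, the cytosines per window, the weighting, the test, the replicate block and each library left out, and limma on all 6 libraries was added after seeing the data. Analyses used Python 3.11.15, NumPy 2.4.6, pandas 2.3.3, SciPy 1.17.1, statsmodels 0.14.6, matplotlib 3.10.9, R 4.3.3 and limma 3.58.1.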

Additional observations from a re-analysis of the deposited data

How the results depend on the processing

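Under the alternatives, 153 of 162 differences of regions, array and strands kept their direction. Of the counts of calls at SDC, 108 of 144 stayed within 1.5 times, which includes counts of 0 that stayed 0. That share therefore does not measure how stable the calls themselves were. Of the regained shares, 17 of 18 moved by less than the SD between NRPD1ΔCTD libraries. This SD was wide, at 18.3 points in the flank and 13.0 points in the array. Leaving out an NRPD1ΔCTD library cannot move a share by more than this SD, so those alternatives could not fail. With a coverage minimum of 10 reads, 1 window was lower in nrpd1-3 than in NRPD1FL and 1 in NRPD1ΔCTD than in NRPD1FL, and the bins called were 1 lower in nrpd1-3, 0 higher in NRPD1ΔCTD than in nrpd1-3 and 0 lower in NRPD1ΔCTD than in NRPD1FL. At a difference of 20 points these counts were 1 and 0 for windows and 1, 0 and 0 for bins. With the grid shifted, 1 window was lower in NRPD1ΔCTD than in NRPD1FL and 0 bins were higher in NRPD1ΔCTD than in nrpd1-3. The quasi-binomial F test, limma, and limma on all 6 libraries called 0 windows and 0 bins at SDC and in the genome. In these tests the smallest adjusted p in windows at SDC was 0.910, 0.202 and 0.0596 for nrpd1-3 against NRPD1FL. The cause was not tested.

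With each library left out in turn, windows lower in nrpd1-3 than in NRPD1FL ranged from 2 to 3, windows higher in NRPD1ΔCTD than in nrpd1-3 from 0 to 1, and windows lower in NRPD1ΔCTD than in NRPD1FL from 0 to 2. The bins ranged from 2 to 4 lower and 0 to 1 higher in nrpd1-3 than in NRPD1FL, from 0 to 2 higher and 0 to 1 lower in NRPD1ΔCTD than in nrpd1-3, and from 0 to 1 lower in NRPD1ΔCTD than in NRPD1FL. The regained share ranged from 36.7 to 60.7% in the array and from 30.3 to 56.2% in the flank.

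Directions turned where differences were small or rested on 1 library, and the cause was not tested. With each library left out in turn, NRPD1ΔCTD minus nrpd1-3 in the bin from 0 ranged from -0.223 to 14.3 points. NRPD1ΔCTD minus NRPD1FL ranged from -8.14 to 4.55 points in the bin from -500, from -8.03 to 1.84 points in the bin from -300, from -9.89 to 4.69 points in the bin from 0, and from -0.689 to 0.471 points in the gene body. The downstream difference of nrpd1-3 from NRPD1FL ranged from -0.0852 to 1.27 points. The strand excess of the flank ranged from -4.02 to 1.07 points for nrpd1-3 minus NRPD1FL and from -4.96 to 0.120 points for NRPD1ΔCTD minus NRPD1FL. On shared cytosines the gene body difference of NRPD1ΔCTD from NRPD1FL was 0.00186 points, and the flank strand excess of nrpd1-3 minus NRPD1FL was 0.495 points. With equal weights the latter was 0.317 points, and that of NRPD1ΔCTD minus NRPD1FL 0.139 points. At 10 reads NRPD1ΔCTD minus NRPD1FL was 0.0747 points downstream, and the strand excess of the array could not be computed.

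The replicate block left 2, 0 and 2 windows and 3, 2 and 1 bins called. Deviations of replicate 1 libraries correlated at 0.00486, 0.00656 and -0.00449 over all windows, and at -0.246, -0.201 and -0.154 over the windows at SDC. With 2 libraries in each group these values cannot decide whether the replicate numbers pair the libraries. Depth was low in the array, where nrpd1-3 had 116 and 117 reads and units 5 and 6 were unread in part.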
